A study of Homo sapiens with 4 samples.

Results

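Substrate receptors are the parts of cullin-RING ubiquitin ligases that pick the proteins to be marked. In CUL3 ligases the receptor is a protein with a BTB domain, which docks on the cullin, and usually a Kelch propeller that holds the substrate, as in the KLHL and KBTBD families. SPOP and its close relative SPOPL use a MATH domain in place of the propeller. In CUL4 ligases the adaptor DDB1 carries the DCAF proteins, most of which have a WD40 propeller. All these ligases work at full rate only when NEDD8 has been joined to the cullin, and MLN4924 (pevonedistat) stops that step by blocking the NEDD8-activating enzyme.

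The mRNAs of these receptors were followed in PC3 cells, an androgen-independent line from a prostate adenocarcinoma metastasis. Genes were taken by symbol: KLHL, KBTBD or DCAF with a number and at most 1 further letter or an L with a number, and SPOP and SPOPL. This gave 67 of the 43622 genes of the expression table, of which 37 were KLHL, 9 were KBTBD, 19 were DCAF and 2 were SPOP genes. The 48 genes whose mean reached 0.1 TPM (transcript abundance scaled to gene length and to the total of the library) over all libraries were tested, and 46 of them had a mean of at least 1 TPM.

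Libraries were made 3 days after treatment began, 3 for each of 4 conditions and 12 in all. Parental PC3 cells received DMSO (Ctrl) or 1 µM MLN4924 (MLN), and the derived line PC3-shp14ARF received the same vehicle (shARF) or the same drug and dose (Both). The PC3-shp14ARF line carries a stable retroviral shRNA against p14ARF, and its comparator is the PC3 line with no control shRNA named, so the shRNA cannot be told apart from the selection of that line. No source used here says whether the 3 libraries of a condition came from separate cultures, so the p-values measure the spread between these libraries, which may be technical. Since each library is a bulk sample, a lower level in every cell and a lower share of cells with the mRNA cannot be told apart.

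CDKN2A, whose locus encodes p14ARF and also p16, was at 190.1, 183 and 177 TPM in Ctrl and at 58.2, 58.7 and 60.9 TPM in shARF. It was at 100.4, 133 and 119 TPM in MLN and at 47.2, 41.2 and 54.01 TPM in Both, so every shRNA library lay below every library of the parental line. The summed level of the epithelial markers KRT8, KRT18, KRT19 and EPCAM was 892 to 985 TPM in Ctrl and 428 to 489.7 in MLN, and at 1118 to 1259 in shARF and 426 to 442 in Both. KRT8 did not share the fall of the sum in MLN, at 90.6 ± 6.60 TPM in Ctrl and 93.1 ± 8.81 in MLN. KLK3, the prostate-specific antigen, was at 0 in every library. The endothelial markers PECAM1, VWF and CDH5 summed to 11.03 to 12.6 TPM in Ctrl, nearly all of it PECAM1, and to 0.679 to 1.03 in MLN, 1.88 to 1.97 in shARF and 0.160 to 0.262 in Both. The fibroblast markers COL1A1, COL1A2, PDGFRA and DCN summed to 21.6 to 24.7, 21.1 to 23.5, 54.4 to 65.02 and 10.4 to 11.4 TPM in the same order, the leukocyte markers to at most 3.27 TPM and the androgen-responsive luminal markers to at most 2.91 TPM. The fibroblast sums hold members that moved apart. In the same order, means were 7.27, 18.2, 4.04 and 6.08 TPM for COL1A1 and 6.73, 1.47, 54.5 and 4.26 for COL1A2. Those of PDGFRA were 8.66, 2.55, 1.29 and 0.373 TPM. These lists moved with the conditions, and their part in the receptor results was not tested.

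The sequences before the starts of 4 receptor genes are shown because these genes stand for the patterns described here: SPOP fell with the drug while its relative SPOPL rose, KLHL15 rose in both lines, and KLHL5 fell with the drug and was lower in the PC3-shp14ARF line. Each line is the 250 bases before the RefSeq start on GRCh38.p14, 5′ to 3′ on the strand of the gene, with capitals where a searched motif matched.
SPOP (chr17:49678164-49678413, minus strand, no annotated gene in the window): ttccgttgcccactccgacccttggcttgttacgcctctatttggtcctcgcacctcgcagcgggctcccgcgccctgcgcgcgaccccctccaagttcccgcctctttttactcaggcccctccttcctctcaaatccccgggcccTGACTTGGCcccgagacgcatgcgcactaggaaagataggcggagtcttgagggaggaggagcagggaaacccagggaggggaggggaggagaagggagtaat
SPOPL (chr2:138501520-138501769, plus strand, 179 bases exonic in the divergent transcript SPOPL-DT): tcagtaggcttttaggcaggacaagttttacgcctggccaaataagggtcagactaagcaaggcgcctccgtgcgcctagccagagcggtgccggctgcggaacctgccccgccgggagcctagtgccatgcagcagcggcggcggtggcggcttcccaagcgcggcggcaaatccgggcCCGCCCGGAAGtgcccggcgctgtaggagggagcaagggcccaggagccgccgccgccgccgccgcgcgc
KLHL15 (chrX:24027187-24027436, minus strand, no annotated gene in the window): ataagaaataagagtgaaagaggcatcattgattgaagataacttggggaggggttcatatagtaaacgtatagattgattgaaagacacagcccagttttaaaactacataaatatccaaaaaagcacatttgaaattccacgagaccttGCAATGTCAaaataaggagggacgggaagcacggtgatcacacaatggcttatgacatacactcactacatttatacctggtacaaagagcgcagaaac
KLHL5 (chr4:39061982-39062231, plus strand, intronic in the longer KLHL5 gene model of GENCODE v44): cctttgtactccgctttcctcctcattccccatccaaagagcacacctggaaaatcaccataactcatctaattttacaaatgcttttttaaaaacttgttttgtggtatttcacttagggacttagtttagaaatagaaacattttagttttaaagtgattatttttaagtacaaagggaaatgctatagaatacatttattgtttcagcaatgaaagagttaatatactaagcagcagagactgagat

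On GRCh38 (GENCODE v44) SPOP lies on chromosome 17 (49598884 to 49678163), SPOPL on chromosome 2 (138501770 to 138573547), KLHL15 on chromosome X (23983716 to 24027186) and KLHL5 on chromosome 4 (39045039 to 39126857). Other genes described at length lie on chromosome 3 (DCAF1, 51395867 to 51500015, and KBTBD8, 66998307 to 67011210), on chromosome 2 (KLHL41, 169509702 to 169526258) and on chromosome X (KLHL4, 87517409 to 87670050).

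The windows of SPOP and SPOPL were 63.2% and 70.8% G and C, with 17 and 29 CpG dinucleotides. Those of KLHL15 and KLHL5 were 38.0% and 32.0% G and C, with 5 and 1. The capitals mark TGACNNNGC, the core of the antioxidant response element, in SPOP and KLHL15, and in SPOPL a GC box (GGGCGG) that overlaps an ETS motif (CCGGAAG), each searched on both strands. KLHL5 held none of the 7 motifs searched. Of the 48 tested genes 41 had a window in the table, and 27 of these (65.9%) held a GC box, against 42.3% of all 27303 windows. Those 27303 were not limited to the genes tested, so the shares of all windows given here are not matched for expression. The NRF1 motif, searched by its palindromic core, was in 4 of the 16 windows of genes that were lower in MLN than in Ctrl and in 0 of the 18 of genes that were higher, against 7.59% of all windows. The core TGACNNNGC was in 5 of those 18 and 2 of those 16 windows, against 11.04% of all. The other motifs were the CCAAT box (CCAAT, 26.8% of the 41 against 33.0% of all), the ETS motif (17.1% against 8.82%), the cyclic AMP response element (TGACGTCA, 2.44% against 1.77%) and the E box (CACGTG, 4.88% against 6.49%).

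The expressed receptors spanned a wide range in untreated cells. DCAF7, a WD40 protein that binds DYRK kinases, was the most abundant at 144 ± 12.7 TPM (SD, n = 3) in Ctrl, followed by KLHL5 at 125 ± 2.41, KLHL20 at 68.3 ± 0.931, DCAF8 at 68.1 ± 3.74 and DCAF12 at 48.97 ± 2.65 TPM. KLHL20 and DCAF8 did not differ beyond their spread, and DCAF6 (48.9 ± 1.86) and DCAF11 (48.4 ± 2.13) lay within the spread of DCAF12. At the low end of the tested genes stood KLHL10, a spermatid receptor, at 0.0638 ± 0.0641 TPM, and KLHL41, a sarcomere protein mutated in nemaline myopathy, at 0.213 ± 0.0630 TPM. Of the 19 genes under a mean of 0.1 TPM, 6 were listed at 0 in every library (DCAF12L1, DCAF4L2, DCAF8L1, KBTBD11, KBTBD13 and KLHL34). The other 13 were above 0 in at least 1 library: DCAF12L2, DCAF4L1, DCAF8L2, KBTBD12, KLHL1, KLHL6, KLHL14, KLHL29, KLHL30, KLHL32, KLHL33, KLHL38 and KLHL40.

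MLN vs Ctrl asks what inhibition of neddylation did to receptor mRNAs in PC3 cells. The 48 tested genes split: 22 were higher in MLN (32.2% of all genes tested were called higher) and 18 were lower (29.4% of all), and 8 did not pass. Called either way were 40 of 48, where the background was 61.6% of all 19932 genes tested and 71.6% of those with a mean of at least 1 TPM. At a log2 fold change of at least 1, 4 were higher (15.6% of all genes) and 9 lower (12.4%). The median log2 fold change of the 48 was 0.24, against 0.052 over all genes. In the PC3-shp14ARF line, Both vs shARF gave 18 higher (28.3% of all genes) and 18 lower (32.8%), or 36 of 48 either way (61% of all, 71.5% at 1 TPM or more), with a median of -0.037 against -0.038. At the fold limit, 3 were higher (13% of all) and 6 lower (13.4%). Fold changes are on the log2(TPM + 0.1) scale, which understates those of low genes.

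**Figure D1:**
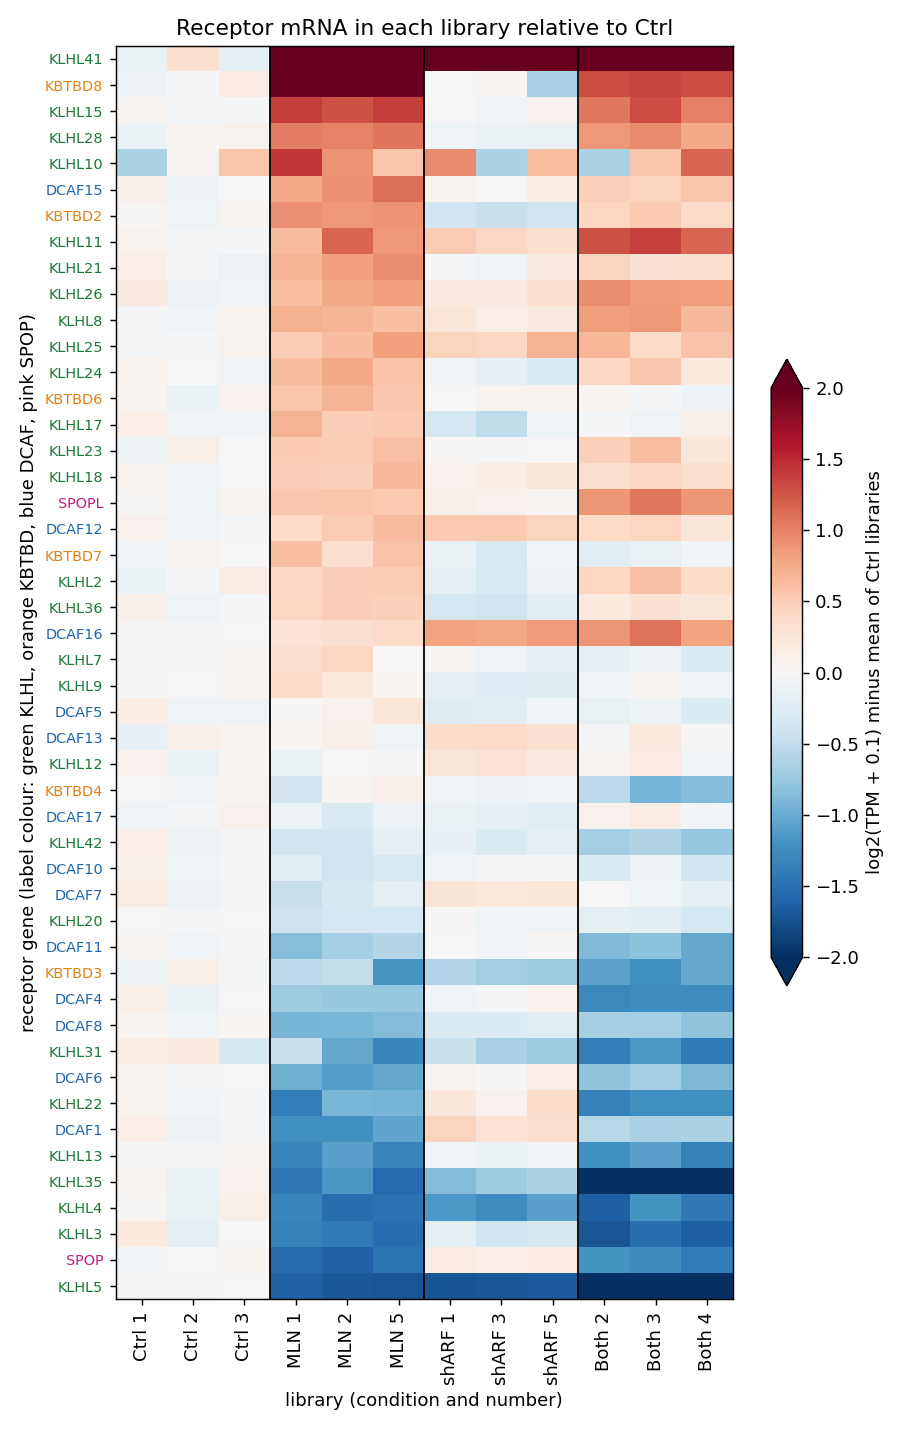
Rows are the 48 tested receptor genes, ordered by their log2 fold change in MLN vs Ctrl, and columns are the 12 libraries. Colour gives log2(TPM + 0.1) minus the mean of the 3 Ctrl libraries, with values beyond 2 either way drawn at the end of the scale. KLHL41 and KBTBD8 stand at the top and KLHL5 and SPOP at the bottom, and KLHL5, KLHL4 and KLHL35 are also lower in the shARF libraries.

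SPOP, the CUL3 receptor most often mutated in prostate cancer, lost most of its mRNA with the drug. It was at 36.7, 38.3 and 39.03 TPM in Ctrl and 13.1, 12.3 and 13.7 in MLN, and at 42.6, 41.8 and 42.6 in shARF and 16.5, 15.7 and 14.4 in Both. All 6 drug libraries lay below all 6 DMSO libraries. On the log2 scale it changed by -1.54 ± 0.058 (SE) in MLN vs Ctrl and -1.45 ± 0.059 in Both vs shARF (limma, adjusted p = 9.94e-06 and 1.06e-05), a fall by factors of 2.90 and 2.72.

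SPOPL, which pairs with SPOP and is known to lower the activity of the ligase, moved the other way. It was at 14.6, 13.5 and 14.98 TPM in Ctrl and 21.01, 21.1 and 20.6 in MLN, and at 15.6, 15.2 and 14.8 in shARF and 26.6, 30.03 and 26.6 in Both. The log2 fold change was 0.54 ± 0.057 in MLN vs Ctrl and 0.86 ± 0.062 in Both vs shARF (adjusted p = 0.000388 and 8.23e-05). The response was larger in the p14ARF-depleted line by 0.32 ± 0.092 (interaction, adjusted p = 0.021), a call that was lost when Ctrl 3 or shARF 5 was left out (highest adjusted p 0.0545). The ratio of SPOP to SPOPL, both in TPM, was 2.65 ± 0.168 in Ctrl and 0.624 ± 0.0399 in MLN, and 2.78 ± 0.0782 in shARF and 0.561 ± 0.0515 in Both. SPOP thus went from the more to the less abundant of the pair in each line, and no library of one treatment overlapped the other (two-sided exact permutation test, p = 0.1 for each line, the smallest that 3 against 3 libraries allow, and 0.178 after Benjamini-Hochberg adjustment over the 16 tests of 4 such ratios). No 50-base stretch of the annotated transcripts was shared between these genes. SPOPL shares 5.84% of its 50-base windows with another gene that overlaps it on the same strand, so its level may hold reads of that gene.

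Among the Kelch receptors that fell with the drug, KLHL5 was at 127, 122 and 125 TPM in Ctrl and 40.7, 39.02 and 38.08 in MLN (-1.67 ± 0.043, adjusted p = 3.68e-06). KLHL3, which hands WNK kinases to CUL3 and is mutated in familial hyperkalaemic hypertension, was at 2.45, 1.84 and 2.13 TPM in Ctrl and 0.772, 0.736 and 0.674 in MLN. In the depleted line it was at 1.86, 1.61 and 1.69 in shARF and 0.581, 0.679 and 0.616 in Both. Its log2 fold changes were -1.43 ± 0.17 and -1.33 ± 0.15 (adjusted p = 0.000554 and 0.000484). KLHL2, its relative that also binds WNK kinases, was higher with the drug (0.47 and 0.65, adjusted p = 0.00369 and 0.000847). The ratio of KLHL2 to KLHL3 was 6.20 ± 1.17 in Ctrl and 24.9 ± 2.49 in MLN, and at 6.63 ± 0.528 in shARF and 28.7 ± 1.42 in Both, with no overlap between treatments (exact permutation p = 0.1 in each line, the smallest possible, 0.178 adjusted).

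The receptors of mitotic kinases did not move as 1 group. KLHL9, KLHL13 and KLHL21 are known to direct Aurora B during mitosis, and KLHL22 to remove PLK1 from kinetochores. KLHL13 was at 11.99, 12.2 and 12.8 TPM in Ctrl and 4.94, 5.75 and 4.79 in MLN, and at 11.9, 11.2 and 11.8 in shARF and 5.21, 5.76 and 4.75 in Both. Its log2 fold changes were -1.24 ± 0.091 and -1.14 ± 0.087 (adjusted p = 8.53e-05 and 0.000103). KLHL22 was at 10.3, 9.47 and 9.68 TPM in Ctrl and 3.72, 5.15 and 5.10 in MLN, and at 11.5, 10.5 and 12.7 in shARF and 3.77, 4.12 and 4.15 in Both. It was 2.11-fold and 2.83-fold lower with the drug (log2 -1.07 ± 0.14 and -1.50 ± 0.10, adjusted p = 0.000969 and 5.06e-05). KLHL21 was higher with the drug, 0.81 in MLN vs Ctrl and 0.34 in Both vs shARF (adjusted p = 0.000487 and 0.0117). KLHL9, which stood at 32.9 ± 0.960 TPM in Ctrl, changed on the log2 scale by 0.21 ± 0.089 in MLN vs Ctrl (adjusted p = 0.0844) and 0.19 ± 0.048 in Both vs shARF (adjusted p = 0.015, lost without shARF 3 at 0.0505). The ratio of KLHL9 to KLHL13 was 2.67 ± 0.0374 in Ctrl and 7.44 ± 1.06 in MLN, and 2.42 ± 0.0511 in shARF and 6.15 ± 0.322 in Both (exact permutation p = 0.1 in each line, the smallest possible, 0.178 adjusted). Its smaller differences between the lines, shARF vs Ctrl and Both vs MLN, were also without overlap and had the same p and adjusted p.

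KLHL35 was at 8.49, 7.36 and 8.68 TPM in Ctrl and 2.96, 3.58 and 2.72 in MLN, and at 4.40, 4.93 and 5.23 in shARF and 1.57, 1.57 and 1.54 in Both, so the lowest level was in the libraries with the shRNA and the drug. Its response to the drug was -1.38 ± 0.13 in MLN vs Ctrl and -1.57 ± 0.11 in Both vs shARF (adjusted p = 0.000251 and 6.64e-05). KLHL20, known for the turnover of DAPK1 and PML, was at 68.9, 67.3 and 68.9 TPM in Ctrl and 51.1, 54.4 and 53.7 in MLN, and at 69.7, 64.3 and 65.7 in shARF and 60.3, 59.3 and 53.5 in Both. It was 1.29-fold lower in MLN vs Ctrl (adjusted p = 0.000548) and 1.15-fold lower in Both vs shARF (adjusted p = 0.0263). The second call was lost without shARF 1 or shARF 5 and with median-of-ratios scaling (highest adjusted p 0.1). KLHL31 and KLHL42 were also lower in both lines (log2 -0.92 and -0.30 in MLN vs Ctrl). In MLN vs Ctrl, KLHL31 was not called with no filter on low values or without Ctrl 1, Ctrl 2, MLN 2 or MLN 5 (highest adjusted p 0.0961), nor KLHL42 without Ctrl 1, Ctrl 3, MLN 1 or MLN 2 (0.077).

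Rises were led by 3 receptors. KLHL41 was at 0.179, 0.285 and 0.174 TPM in Ctrl and 3.27, 1.72 and 3.05 in MLN, and at 1.14, 1.13 and 1.45 in shARF and 6.34, 5.68 and 5.52 in Both. Its log2 fold changes with the drug were 3.12 ± 0.30 and 2.16 ± 0.14 (adjusted p = 0.000266 and 5.26e-05). Of its annotated transcript, 36.9% of 50-base windows also lie in a readthrough gene that joins it to the upstream gene BBS5, so the counts of these genes may be split. BBS5 itself was at 6.58 ± 0.332 TPM in Ctrl and 9.87 ± 0.551 in MLN, a log2 fold change of 0.58.

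KBTBD8, which acts in neural crest specification through TCOF1 and NOLC1, was at 1.48, 1.58 and 1.83 TPM in Ctrl and 8.82, 6.86 and 6.72 in MLN. In the depleted line it was at 1.63, 1.67 and 1.01 in shARF and 4.14, 4.30 and 4.16 in Both. The drug raised it 4.35 times and 2.86 times (log2 2.12 ± 0.15 and 1.52 ± 0.21, adjusted p = 7.58e-05 and 0.00117). KLHL15, a receptor of a PP2A regulatory subunit and of the repair factor CtIP, was at 7.62, 7.18 and 7.10 TPM in Ctrl and 19.1, 17.7 and 19.2 in MLN, and at 7.23, 6.91 and 7.77 in shARF and 15.3, 18.3 and 14.7 in Both. Its log2 fold changes were 1.34 ± 0.065 and 1.12 ± 0.10 (adjusted p = 2e-05 and 0.000186), and the 3 drug libraries of each line lay above all DMSO libraries.

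A further 13 genes were called higher in both lines. Besides SPOPL, KLHL21 and KLHL2 they were DCAF15, KBTBD2, KLHL8, KLHL11, KLHL18, KLHL23, KLHL24, KLHL26, KLHL28 and KLHL36. KLHL28 changed most of the KLHL genes among these (1.03 and 0.98). KBTBD2, which controls the p85 subunit of PI3 kinase in insulin signalling, went from 29.6 ± 1.45 TPM (Ctrl) up to 54.9 ± 0.817 (MLN). KLHL24, a regulator of keratin 14 in skin, rose from 11.1 ± 0.559 to 17.5 ± 1.22 TPM. KLHL18, known to act on Aurora A, rose from 24.3 ± 1.08 to 35.4 ± 2.49 TPM. KLHL11 shares 39.7% of its 50-base windows with an overlapping noncoding gene on the same strand, so its rise (0.89 and 0.86) may hold reads of that gene.

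Of the 13 DCAF genes tested, 7 were lower and 3 higher in MLN vs Ctrl (29.4% and 32.2% of all genes). Of the falls, that of DCAF7 and that of DCAF10 were each lost in 4 of the fits that left out 1 library. In Both vs shARF 7 DCAF genes were lower and 2 higher (32.8% and 28.3% of all genes). Of the 27 KLHL genes, 9 were lower and 14 higher in MLN vs Ctrl, and 8 and 13 in Both vs shARF. The falls were thus near the share over all genes and the rises above it. Neither this nor the difference between the families was tested. DCAF1, the receptor that the Vpr and Vpx proteins of immunodeficiency viruses redirect, was at 27.2, 23.1 and 24.3 TPM in Ctrl and 10.6, 10.5 and 11.8 in MLN, and at 33.7, 30.4 and 31.8 in shARF and 16.9, 15.7 and 15.9 in Both. With the drug it was 2.25-fold and 1.97-fold lower (log2 -1.17 ± 0.085 and -0.98 ± 0.056, adjusted p = 8.37e-05 and 3.35e-05). DCAF6, a coactivator of nuclear receptors, and DCAF11 were lower in both lines as well (-1.03 and -0.87, and -0.71 and -0.90).

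DCAF4 was at 24.3, 20.2 and 22.5 TPM in Ctrl and 13.5, 13.1 and 13.2 in MLN, and at 21.04, 21.97 and 23.6 in shARF and 9.07, 9.39 and 9.32 in Both. Both DMSO conditions held it at a like level, while the drug lowered it to a different level in each line, with log2 fold changes of -0.75 ± 0.077 and -1.25 ± 0.058. DCAF8, mutated in a dominant axonal neuropathy, was at 70.4, 63.8 and 70.1 TPM in Ctrl and 35.5, 36.1 and 37.3 in MLN, and at 56.1, 56.4 and 58.8 in shARF and 43.01, 42.4 and 39.04 in Both. Its log2 fold changes were -0.90 ± 0.054 and -0.46 ± 0.05 (adjusted p = 4.28e-05 and 0.000426). A readthrough gene that joins PEX19 to DCAF8 holds 57.3% of its 50-base windows. PEX19 was at 134 ± 1.32 TPM in Ctrl and 109.6 ± 7.29 in MLN, and at 124.5 ± 3.73 in shARF and 137 ± 7.64 in Both. PEX19 was thus lower with the drug in PC3 cells and not in the depleted line. Whether reads of the readthrough gene shaped the DCAF8 values was not tested. Another gene on the same strand overlaps 18.5% of the exonic bases of DCAF7, and 19.5% of its 50-base windows are shared with other genes. Its level may therefore hold reads of these genes. DCAF7 was at 158, 134 and 139 TPM in Ctrl and 105, 114 and 126 in MLN, and at 171, 167 and 169 in shARF and 142, 135 and 125 in Both. It was lower with the drug by -0.32 ± 0.094 (adjusted p = 0.0251, lost with no filter on low values and without any 1 of Ctrl 1, Ctrl 3, MLN 1 and MLN 2, highest 0.0744) and -0.33 ± 0.055 (adjusted p = 0.00253).

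DCAF15 is the receptor through which indisulam brings about the loss of the splicing factor RBM39. It was at 43.2, 37.4 and 40.2 TPM in Ctrl and 69.02, 75.7 and 86.3 in MLN, and at 42.1, 39.9 and 44.4 in shARF and 56.2, 54.9 and 59.4 in Both. It rose 1.90 times and 1.35 times with the drug (adjusted p = 0.000358 and 0.000831). DCAF16, a receptor used by electrophilic degraders, was at 34.9, 33.9 and 34.6 TPM in Ctrl and 42.3, 43.1 and 45.1 in MLN, and at 60.01, 59.1 and 61.95 in shARF and 63.9, 73.4 and 59.96 in Both. Its log2 fold change with the drug was 0.34 ± 0.044 in MLN vs Ctrl (adjusted p = 0.000918) and 0.12 ± 0.078 in Both vs shARF (adjusted p = 0.237). DCAF12, which reads paired glutamates at protein C-termini, was at 51.9, 46.7 and 48.3 TPM in Ctrl and 64.4, 69.6 and 74.7 in MLN, and at 70.5, 70.6 and 66.7 in shARF and 64.4, 66.3 and 57.8 in Both. The Ctrl libraries held less DCAF12 than any other library.

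**Figure D2:**
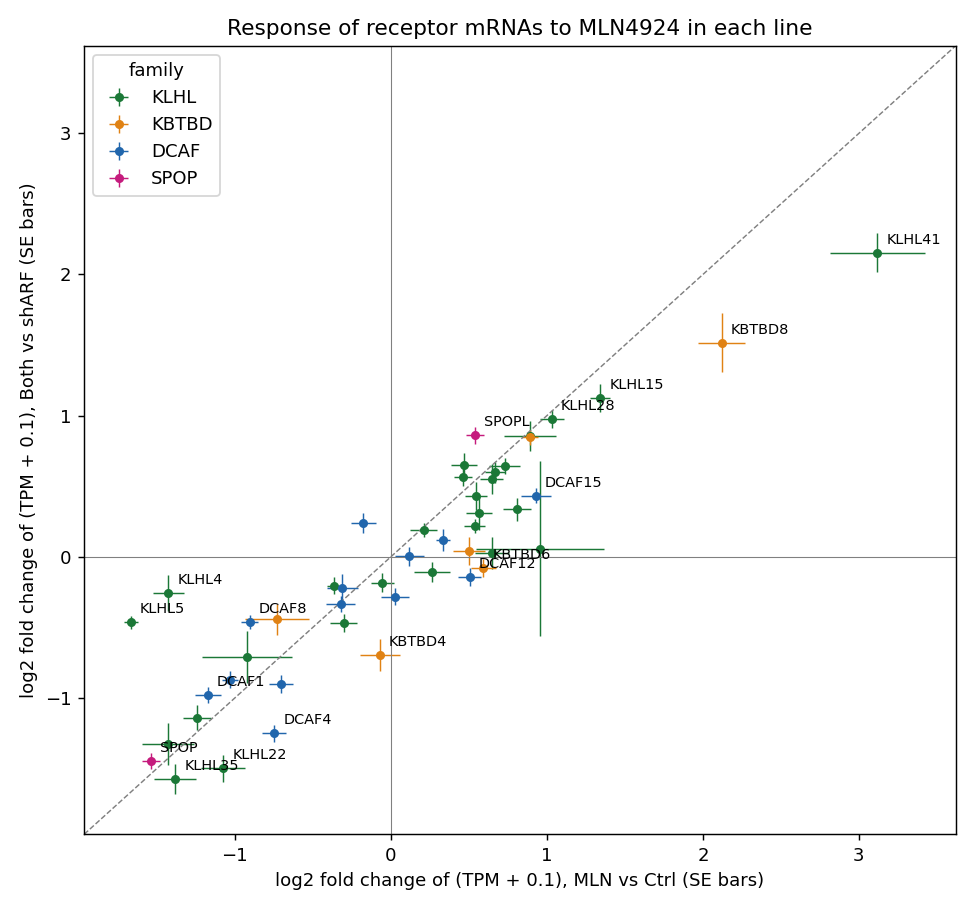
Log2 fold change with MLN4924 of the 48 tested genes in PC3 cells (x axis, MLN vs Ctrl) and in PC3-shp14ARF cells (y axis, Both vs shARF), with SE bars, coloured by family, and a dashed line of equal response. Most points lie near the line, while KLHL5 and KLHL4 lie above it and KBTBD4, KBTBD6 and DCAF12 below it.

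The 2 drug comparisons share no library, so their calls can be set side by side. Of the 48 genes, 16 were called higher in each, 16 lower in each, and no gene was called in opposite directions. Joint calls were not counted over all genes, so these counts have no background and are not shown to be particular to the receptors. Called either way in the single comparisons were 61.6% (MLN vs Ctrl) and 61% (Both vs shARF) of all genes. A further 8 were called in MLN vs Ctrl alone (DCAF12, DCAF16, KBTBD6, KBTBD7, KLHL17 and KLHL25 higher, DCAF10 and KLHL4 lower), and 4 in Both vs shARF alone (DCAF17 and KLHL9 higher, DCAF13 and KBTBD4 lower). DCAF5, KLHL7, KLHL10 and KLHL12 passed in neither. Some of these 12 calls in 1 line turned on a setting. DCAF10 was not called in MLN vs Ctrl without Ctrl 1, Ctrl 3, MLN 2 or MLN 5 (highest adjusted p 0.102), nor DCAF17 in Both vs shARF without any 1 of shARF 1, shARF 3, shARF 5, Both 2 and Both 3 (0.0801). DCAF16 was also called in Both vs shARF with median-of-ratios scaling (log2 0.21, adjusted p = 0.0244), and KLHL4 and DCAF10 without Both 3. KLHL17 was called there with that scaling, in 1 fit of 12 libraries and without shARF 5, and KLHL9 was called in MLN vs Ctrl in 1 fit of 12 libraries and without MLN 5. Over the 48 genes the log2 fold changes of the drug comparisons correlated with a Pearson coefficient of 0.906 and a Spearman coefficient of 0.891, and over all 19932 genes with 0.770 and 0.741. These describe genes of the same libraries, which are not independent replicates. The sets were not matched for expression: 46 of the 48 genes had a mean of at least 1 TPM, against 14663 of the 19932.

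Whether the drug response itself differed between the lines was tested as the difference of the responses, Both vs shARF minus MLN vs Ctrl. It passed for 14 of 48 genes, 5 with a positive difference (11.2% of all genes) and 9 with a negative one (17.1%), where 28.3% of all genes, and 35.4% of those at 1 TPM or more, passed either way. At the fold limit these were 2 (3.52%) and 0 (4.95%). With median-of-ratios scaling the split was 8 and 8, and the median difference of all genes moved from -0.085 to 0.0064. The largest difference among the 48 was that of KLHL5. It was at 37.5, 38.7 and 39.5 TPM in shARF and 27.3, 29.2 and 27.3 in Both, so with the drug it was 3.17-fold lower in PC3 cells and 1.38-fold lower in the depleted line, where it already stood at the level of the treated parental cells (interaction 1.20 ± 0.07, adjusted p = 3.97e-07). KLHL4 was at 13.2, 11.7 and 13.996 TPM in Ctrl and 5.17, 4.50 and 4.59 in MLN, and at 5.76, 5.42 and 6.03 in shARF and 4.12, 5.61 and 4.72 in Both. Its response was -1.43 ± 0.10 (adjusted p = 7.18e-05) in PC3 cells and -0.26 ± 0.13 (adjusted p = 0.132) in the depleted line, with a difference of 1.17 ± 0.17 (adjusted p = 0.000331).

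The negative differences were rises of the parental line that were smaller in the depleted line, or deeper falls. KBTBD6 and KBTBD7, which act together on the Rac activator TIAM1, both rose in PC3 cells. KBTBD6 was at 10.6, 9.42 and 10.9 TPM in Ctrl and 15.2, 16.6 and 14.999 in MLN, and at 10.2, 10.8 and 10.8 in shARF and 10.5, 10.1 and 9.45 in Both, so the MLN libraries stood above the other 9. KBTBD7 was at 4.49, 4.93 and 4.65, 7.17, 5.94 and 6.98, 4.29, 3.77 and 4.39 and 4.05, 4.23 and 4.50 TPM in the same order of conditions. In PC3 cells they rose by 0.59 ± 0.081 and 0.50 ± 0.10 on the log2 scale (adjusted p = 0.00112 and 0.00621). The log2 fold changes in the depleted line were -0.077 ± 0.063 and 0.039 ± 0.10 (adjusted p = 0.337 and 0.759). The differences were -0.67 ± 0.11 (adjusted p = 0.000856) and -0.46 ± 0.15 (adjusted p = 0.0357). That of KBTBD7 was lost with median-of-ratios scaling and without any 1 of Ctrl 1, Ctrl 3, MLN 1, MLN 5, shARF 1, shARF 5, Both 2 and Both 3 (highest 0.0912). Of the 50-base windows, 9.53% of those of KBTBD6 and 10.5% of those of KBTBD7 are shared with the other gene, and the ratio of KBTBD6 to KBTBD7 was between 2.21 and 2.56 in the means of the 4 conditions (exact permutation p = 0.6 and 0.5 for the drug in the parental and the depleted line). Without the drug, this ratio was higher in every shARF library than in any Ctrl library (exact permutation p = 0.1, the smallest possible, 0.178 adjusted).

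KLHL25, known for the turnover of 4E-BP1 and ATP citrate lyase, was at 4.16, 4.21 and 4.50 TPM in Ctrl and 6.15, 6.60 and 7.65 in MLN, and at 5.84, 5.75 and 6.97 in shARF and 6.85, 5.66 and 6.41 in Both. The drug rise of 0.65 ± 0.11 in PC3 cells (adjusted p = 0.00249) stood against 0.028 ± 0.11 in the depleted line (adjusted p = 0.853), where the DMSO libraries were already higher. DCAF12 had the same form, with 0.50 ± 0.071 (adjusted p = 0.00129) against -0.14 ± 0.061 (adjusted p = 0.0893) and a difference of -0.65 ± 0.10 (adjusted p = 0.000542). KBTBD4, a receptor altered in medulloblastoma, was at 27.4, 26.4 and 28.2 TPM in Ctrl and 21.2, 28.3 and 29.4 in MLN, and at 26.1, 25.2 and 26.4 in shARF and 19.05, 14.3 and 14.9 in Both. It was lower in Both than in any other condition, with a response of -0.70 ± 0.11 in the depleted line (adjusted p = 0.00246) and -0.07 ± 0.13 in PC3 cells (adjusted p = 0.665). Genes on the opposite strand, among them PTPMT1, overlap 66.6% of its exonic bases, and PTPMT1 was at 64.8 ± 2.27 TPM in shARF and 71.5 ± 3.88 in Both. Whether the counting used strand is not given in the sources used here.

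shARF vs Ctrl compares the lines without the drug. Of the 48 genes, 10 were higher in shARF (21% of all genes) and 8 lower (20.4%), and 18 of 48 either way stood against 41.4% of all genes tested and 50.2% of those at 1 TPM or more. At the fold limit, 1 was higher (3.87%) and 2 were lower (6.6%). The count of higher genes was 6 without Ctrl 3 and 5 without shARF 1. The largest difference was that of KLHL41, at 0.213 TPM in Ctrl and 1.24 in shARF (log2 2.11 ± 0.20, adjusted p = 0.00116). DCAF16 was 1.75 times higher (adjusted p = 6.65e-05), and DCAF12 and KLHL25 were 1.41 and 1.43 times higher (adjusted p = 0.00126 and 0.0114). DCAF1 was higher by 0.36 ± 0.075 (adjusted p = 0.0146), a call lost without Ctrl 3 or shARF 1 (highest 0.0546). SPOP was higher by 0.16 ± 0.03 (adjusted p = 0.0119), a call lost with median-of-ratios scaling and in 1 fit of all 12 libraries (highest 0.0681). Lower in shARF were KLHL5 by -1.69 ± 0.028 (adjusted p = 1.4e-05), KLHL4 by -1.16 ± 0.085 (adjusted p = 0.000541) and KLHL35 by -0.74 ± 0.10 (adjusted p = 0.00372). shARF vs Ctrl and MLN vs Ctrl share the Ctrl libraries.

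Both vs MLN makes the same comparison under the drug. It gave 6 genes higher in Both (11.8% of all genes) and 15 lower (20.6%), or 21 of 48 either way against 32.4% of all and 38.3% of those at 1 TPM or more. At the fold limit, 1 was higher (2.18%) and 0 were lower (6.84%). The split became 12 and 12 with median-of-ratios scaling, and 3 higher genes without Both 2 or Both 3. Of the 15, 5 were KBTBD genes (KBTBD2, KBTBD4, KBTBD6, KBTBD7 and KBTBD8), out of 6 tested. This family was picked out after its values were seen, and differences between families were not tested. KBTBD8 was lower by -0.80 ± 0.12 (adjusted p = 0.00602) and KLHL35 by -0.93 ± 0.14 (adjusted p = 0.00556). KBTBD4 was lower by -0.70 ± 0.17 (adjusted p = 0.0234, lost with no filter on low values and without any 1 of MLN 2, MLN 5, Both 3 and Both 4, highest 0.0879). DCAF15 was lower by -0.43 ± 0.09 (adjusted p = 0.0155, lost without MLN 2, Both 2 or Both 3, highest 0.0596). Higher in Both were DCAF16 by 0.59 ± 0.083 (adjusted p = 0.00439), DCAF1 by 0.56 ± 0.072 (adjusted p = 0.00332) and SPOPL by 0.40 ± 0.064 (adjusted p = 0.00641). KLHL41 was higher by 1.15 ± 0.25 (adjusted p = 0.0181, lost without any 1 of the Both libraries, highest 0.07).

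**Figure D3:**
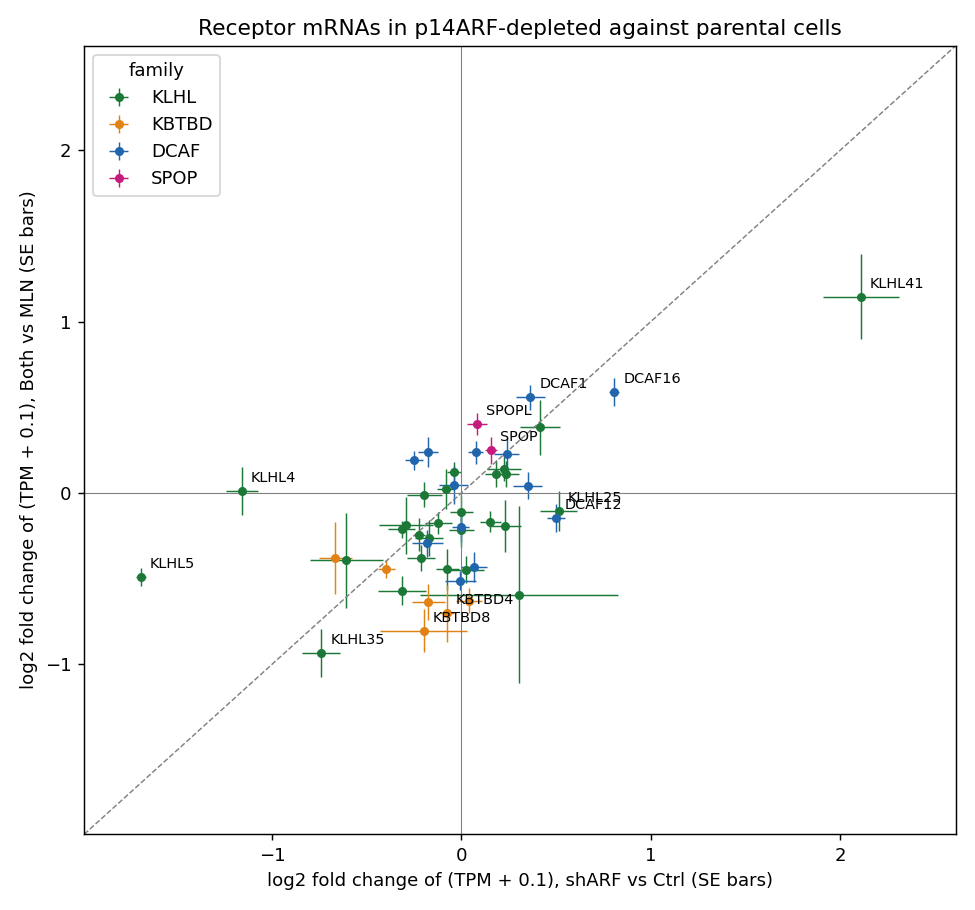
Log2 fold change between the p14ARF-depleted and the parental line for the 48 tested genes with DMSO (x axis, shARF vs Ctrl) and with MLN4924 (y axis, Both vs MLN), with SE bars and a dashed line of equal difference. KLHL41 and DCAF16 are higher in the depleted line in both, and KLHL5 and KLHL4 are lower mainly without the drug.

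**Figure D4:**
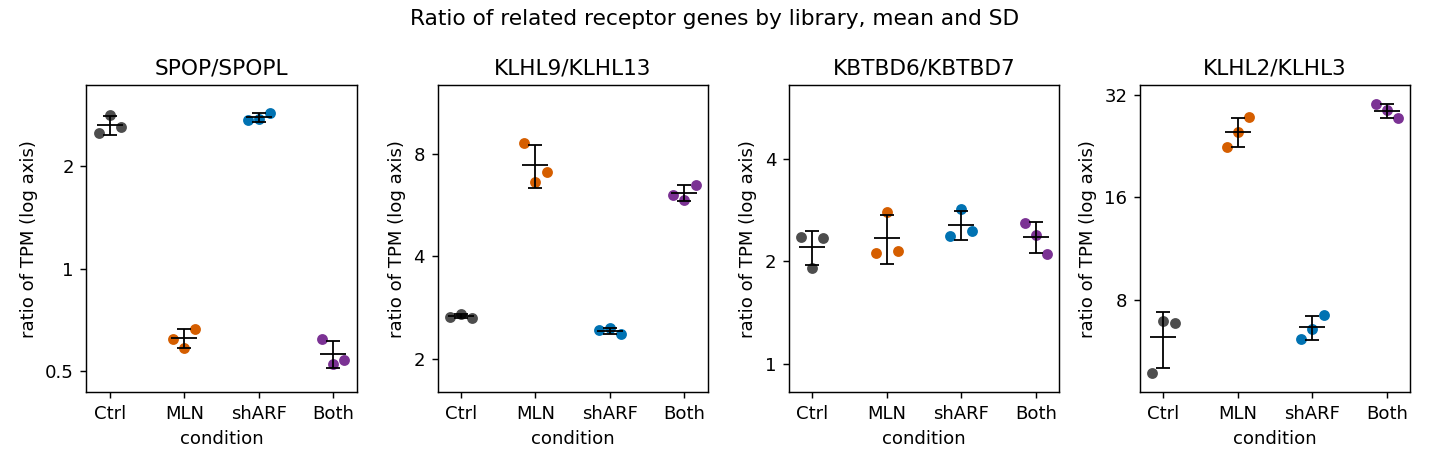
Ratio of the TPM values of 4 pairs of related receptor genes in each library (points), with the mean and SD of 3 libraries as bars, on log axes that each span the same factor. SPOP to SPOPL falls below 1 in both drug conditions, KLHL9 to KLHL13 and KLHL2 to KLHL3 rise, and KBTBD6 to KBTBD7 overlaps between the DMSO and the drug libraries of each line.

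The shared parts of these ligases were read from the same libraries. Of 8 core genes (CUL3, CUL4A, CUL4B, DDB1, DDA1, RBX1, NEDD8 and CAND1), 3 were higher and 4 lower in MLN vs Ctrl (32.2% and 29.4% of all genes), with a median of -0.23 against 0.052 over all genes. CUL3, the scaffold of the BTB receptors, was at 21.2, 19.7 and 22.4 TPM in Ctrl and 19.5, 20.4 and 21.3 in MLN, and at 20.4, 21.9 and 21.5 in shARF and 30.8, 33.5 and 30.5 in Both. It was higher in Both vs shARF (0.57 ± 0.054, adjusted p = 0.000254) and was not called in MLN vs Ctrl (-0.045 ± 0.066, adjusted p = 0.583), and the responses differed by 0.62 ± 0.093 (adjusted p = 0.000478). For the DCAF receptors, DDB1 was lower with the drug (-0.69 and -0.76), as were CUL4A (-0.54 and -0.58) and CUL4B (-0.45 and -0.44). DDA1, a small subunit that binds DDB1, was higher, at 89.6 ± 9.21 TPM (Ctrl) and 224 ± 20.4 (MLN) (1.33 and 0.97). CAND1, which exchanges receptor modules on cullins, was lower in both lines (-0.41 and -0.24), the second call being lost with no filter, with median-of-ratios scaling and in 5 of 6 fits without 1 library (highest adjusted p 0.116).

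Of 25 receptors of the same ligases with other symbols, 10 were higher and 9 lower in MLN vs Ctrl (median -0.19), and 9 and 8 in Both vs shARF (median -0.048). These counts were near the shares over all genes, 32.2% and 29.4% in the first comparison and 28.3% and 32.8% in the second. KEAP1, the NRF2 receptor, was higher (1.19 and 0.58), as was DTL, the CDT2 receptor of CDT1 (1.89 and 0.82). BTBD9 (-2.17 and -1.74), DET1 (-2.04 and -1.96) and RHOBTB1 (-1.08 and -1.74) were lower. ENC1, a Kelch protein that was at 72.7 TPM in Ctrl and 35.9 in MLN, and at 39.3 in shARF and 55.9 in Both, fell in PC3 cells and rose in the depleted line (-1.01 and 0.51, difference 1.52 ± 0.079, adjusted p = 1.54e-07).

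Of 31 genes that encode known substrates, 29 were tested, of which 10 were higher and 12 lower in MLN vs Ctrl (median -0.068), and 9 and 14 in Both vs shARF (median -0.17). Over all genes 32.2% were higher and 29.4% lower in the first comparison, and 28.3% and 32.8% in the second. The counts of higher genes were thus near the background and those of lower genes above it, which was not tested. CDT1, the licensing factor that CUL4 ligases remove in S phase, was higher (2.41 and 0.86), as was SLBP, the histone mRNA binding protein (1.11 and 0.46). PLK1, the substrate of KLHL22, was lower (-2.02 and -2.89), and SMARCC1, a subunit of the SWI/SNF remodeller, was lower too (-1.63 and -1.17). These are mRNA levels, and the amounts of the substrate proteins were not measured in these libraries.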

How the data were processed

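RNA-seq of 12 libraries was reported as 1 table of TPM values for 43622 genes. The libraries were put into conditions by the sample labels and the condition names in the table header, whose library numbers are not described. Adapter trimming, mapping to hg38 and quantification on an Ensembl annotation were done by the authors in CLC Genomics Workbench, and their own comparisons, not used here, in DESeq2. The deposited values are TPM, and every library sums to 1000000, so depth is unknown and no counting error could be given. Read layout and strand are not given in the sources used here.

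From these values log2(TPM + 0.1) was fitted (lmFit, eBayes with trend) in limma 3.58.1 and R 4.3.3 on the 19932 genes whose mean reached 0.1 TPM, with Benjamini-Hochberg adjustment over all of them and calls at an adjusted p below 0.05. Pairs of conditions were fitted on their 6 libraries and the interaction on all 12. Ratios of 4 pairs of related genes, chosen with their values known, were compared by two-sided exact permutation tests.

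Values in every library are given for SPOP, SPOPL and DCAF1, the 5 genes highest in Ctrl, and the largest called changes among genes whose mean reached 1 TPM (up to 10 for each drug comparison, 5 for each shRNA comparison and 8 by the smallest interaction p), 23 in all. The genes and lists were chosen with earlier results of these data known. The lists were ligase core genes, receptors with other symbols, substrates and markers of cell types. Alternatives were another pseudocount (1), no filter, median-of-ratios scaling, 1 fit of 12 libraries, a block on library numbers and each library left out. Gene positions are from GENCODE v44 and windows before starts from RefSeq. Other named genes illustrate counts and were picked after their values were seen.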

Additional observations from a re-analysis of the deposited data

Results flagged for a closer look

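For 14 receptor genes the response to MLN4924 differed between PC3 and PC3-shp14ARF cells by the interaction test (log2 difference of Both vs shARF minus MLN vs Ctrl, limma, adjusted p below 0.05). The difference was positive for KLHL5 (1.20), KLHL4 (1.17), DCAF8 (0.44, adjusted p = 0.0017), DCAF17 (0.42, adjusted p = 0.0172) and SPOPL (0.32). It was negative for KBTBD6 (-0.67), DCAF12 (-0.65), KBTBD4 (-0.63, adjusted p = 0.0184), KLHL25 (-0.62, adjusted p = 0.0132), DCAF4 (-0.51, adjusted p = 0.00345), DCAF15 (-0.50, adjusted p = 0.00739), KLHL21 (-0.47, adjusted p = 0.0142), KBTBD7 (-0.46) and KLHL18 (-0.32, adjusted p = 0.0217).

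DCAF17, mutated in Woodhouse-Sakati syndrome, was the 1 gene of the 14 whose responses had opposite signs with a call in the depleted line alone, at -0.18 ± 0.081 in MLN vs Ctrl (adjusted p = 0.104) and 0.24 ± 0.07 in Both vs shARF (adjusted p = 0.027, lost in 5 of 6 fits that left out 1 library, highest 0.0801). It was at 10.1, 10.4 and 11.2 TPM in Ctrl, 9.73, 8.62 and 9.73 in MLN, 9.54, 9.36 and 9.16 in shARF and 11.3, 11.8 and 10.2 in Both. The calls of SPOPL and KBTBD7 and that of KLHL18 (highest adjusted p 0.0575, without Ctrl 2 or shARF 5) depended on single libraries, whereas the interaction calls of the other 11 held under every alternative without the replicate block. No alternative dealt with reads of overlapping or readthrough genes, as for DCAF8 and KBTBD4.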

How the results depend on the processing

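No value of the 23 genes named in every library changed sign with a call under any alternative. Of 72 counts with 1 library left out, 68 stayed within 1.5 times the main count, and so did 36 of 38 counts under the other settings. With 1 library left out in turn, genes higher and lower in MLN vs Ctrl numbered 22 to 24 and 14 to 16, in Both vs shARF 16 to 18 and 17 to 21, in shARF vs Ctrl 5 to 11 and 7 to 10 (5 higher without shARF 1, 6 without Ctrl 3), and in Both vs MLN 3 to 6 and 10 to 14 (3 higher without Both 2 or Both 3). Positive and negative interactions numbered 4 to 6 and 8 to 10. Median-of-ratios scaling (factors of 0.929 to 1.05) gave 12 genes higher in Both vs MLN in place of 6 and 8 positive interactions in place of 5. Among the values of those 23 genes alone, 38 of 828 lost and 10 gained a call without a library, and 7 of 437 lost and 10 gained one under the other settings. With the replicate block, 27 of 69 lost and 0 gained one. Tested genes outside the 23 are not in this tally, and some lost calls too (DCAF5 and KLHL7 in Both vs MLN).

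Over all genes tested, libraries of the same number did not deviate together. Deviations from the condition means correlated at -0.046 to 0.022 over 10 pairs of the same number and at -0.046 to 0.041 over 44 pairs of different numbers. A pairing that moved only part of the genes may not show in such correlations, so they cannot exclude it. With the replicate block, only libraries that share a number inform a comparison. It gave 7 genes higher and 10 lower in MLN vs Ctrl, 0 higher and 0 lower in shARF vs Ctrl (limma, 15 of 48 at an unadjusted p below 0.05), and 4 positive and 3 negative interactions. No block was fitted to Both vs shARF or Both vs MLN, which share 1 number each. Leaving 1 library of 3 out leaves 2, and the depth behind low TPM values is unknown.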
